A study of Mus musculus with 4 samples.

Results

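Tomato and EGFP, the reporter entries of the gene list, were 2 of the 43348 features counted in mouse forebrain cells sorted for TdTomato. They were chosen by symbol, which for both is also the identifier in the files, and no genome position is given for either. All animals carried Nkx2-1-Cre, a driver active in progenitors of the medial ganglionic eminence (MGE), together with Ai14, an allele that makes TdTomato once Cre has acted. Wild-type (WT) animals were Grin1 wt/wt littermate controls and Grin1-null animals were Grin1 fl/fl, in which the same Cre removes Grin1 from the marked lineage. Frontal cortex and hippocampus of males and females at postnatal day 18 to 20 gave 3 WT and 2 Grin1-null libraries per region. Each library was pooled from several mice, so the p-values measure the spread between libraries and not between animals. The paper describes slices that held both regions, so cortex and hippocampus libraries of the same replicate number may share mice. Exact tests over libraries count them as separate, and their p-values are too small if mice were shared. No EGFP allele is named for these mice.

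Ai14 lies in the Rosa26 locus, where a broadly active promoter drives TdTomato after Cre has removed a stop cassette, so the mark stays in all descendants of a recombined cell. Nkx2-1 is a homeodomain factor of the ventral telencephalon, and its progenitors give rise to SST and PVALB interneurons, to some neurogliaform cells (NGFC), and to cells of the oligodendrocyte and astrocyte lineages. Microglia arise from the yolk sac, outside this lineage, and reporter RNA counted in them served as the measure of stray RNA, that is, RNA of other cells captured in the same droplet. EGFP is a green fluorescent protein used as a reporter in many mouse lines.

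The 10 libraries held 26987 cell barcodes and 169924587 unique molecular identifiers (UMIs). Cortex Grin1-null replicate 1 was the smallest, with 181 barcodes and 1488601 UMIs, and hippocampus Grin1-null replicate 2 the most deeply counted, with 4436 barcodes and 47338167 UMIs. The median cell held between 1479 UMIs, in hippocampus WT replicate 2, and 9508 UMIs, in hippocampus Grin1-null replicate 2. The chemistry was version 2 for replicate 1 of every group and version 3 for all other libraries. A set of 95 barcode sequences occurred in more than 1 library, covering 190 cells (0.704%), with at most 12 sequences shared by any pair of libraries. A filter on genes per cell (200 to 6000) and on the mitochondrial share (under 30%) kept 26201 cells. A gate on marker genes that did not include either reporter placed 22618 of them (86.3%) in a class and left 1240 with markers of more than 1 class (mixed) and 2343 unassigned. Every class had all of its markers at 20 CPM (UMIs per 1e6 UMIs) or more and no marker of another class among its 10 leading genes by fold. Since the gate used these markers, this is in part its doing and no independent check of the classes. Genes of dividing cells such as Top2a and Cdk1 stood among the leading genes of oligodendrocyte precursor cells (OPCs), and haemoglobin genes among those of endothelial cells.

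Grin1, the obligatory subunit of NMDA receptors and the gene removed here, was read first as a check of the labels. Interneurons of cortex held 144, 239.8 and 213 CPM of Grin1 in the WT libraries and 35.7 and 27.7 CPM in the Grin1-null libraries. Those of hippocampus held 119.9, 162 and 144 CPM in WT and 26.8 and 19.5 CPM in Grin1-null. All null libraries lay below all WT libraries in each region. The log2 difference was −2.67 ± 0.33 (SE) in cortex, with an edgeR adjusted p of 0.0567, and −2.63 ± 0.33 in hippocampus, with an adjusted p of 0.0619. Reads of 3′ counting can fall outside the deleted exons, so the remaining Grin1 UMIs do not measure how many cells kept the gene.

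Tomato was read in every library. It gave 114530 UMIs in 18609 of the 26987 cells (69.0%), with at most 67 UMIs in a cell, or 674 CPM over all counts. Among kept cells the level ran from 266 CPM in hippocampus WT replicate 1 to 809 CPM in cortex Grin1-null replicate 2. In cortex, Tomato stood at 487, 796 and 684 CPM in the WT libraries and at 448 and 809 CPM in the Grin1-null libraries. In hippocampus it stood at 266, 424 and 609.7 CPM in WT and at 486 and 794 CPM in Grin1-null. Replicate 1 was the lowest library of each group, and the groups overlapped. The share of cells with a Tomato UMI ran from 45.4% in hippocampus WT replicate 2, the library with the fewest UMIs per cell, to 92.0% in hippocampus Grin1-null replicate 2, the one with the most.

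The class carrying the most Tomato per UMI was the astrocytes, and among the classes compared by test those carrying the least were oligodendrocytes and microglia. Averaged over libraries with at least 10 cells of a class, Tomato stood at 2404 ± 1288 CPM in astrocytes (SD, n = 9 libraries), 1145 ± 494 CPM in glutamatergic neurons (n = 6), 1091 ± 539.6 CPM in OPCs (n = 9), 735 ± 269.9 CPM in committed oligodendrocyte precursors (n = 9) and 713 ± 222 CPM in interneurons (n = 10). Microglia followed at 257 ± 125 CPM (n = 6) and oligodendrocytes at 198 ± 77.2 CPM (n = 10). Between neighbours in this order, only the step from interneurons to microglia was larger than the SDs of both classes, and each of the other steps was smaller than the larger of the SDs on its sides. These means rest on different libraries, and over the 9 with both classes interneurons stood at 738 CPM and committed precursors at 735 CPM. All cells, microglia included, had passed the sort for TdTomato, so the levels and shares describe sorted cells and not the classes in the tissue. The classes were compared inside libraries, since cells of a library share its depth and its stray RNA. Cortex and hippocampus libraries of the same replicate number entered these comparisons as separate values, although they may share mice.

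**Figure D1:**
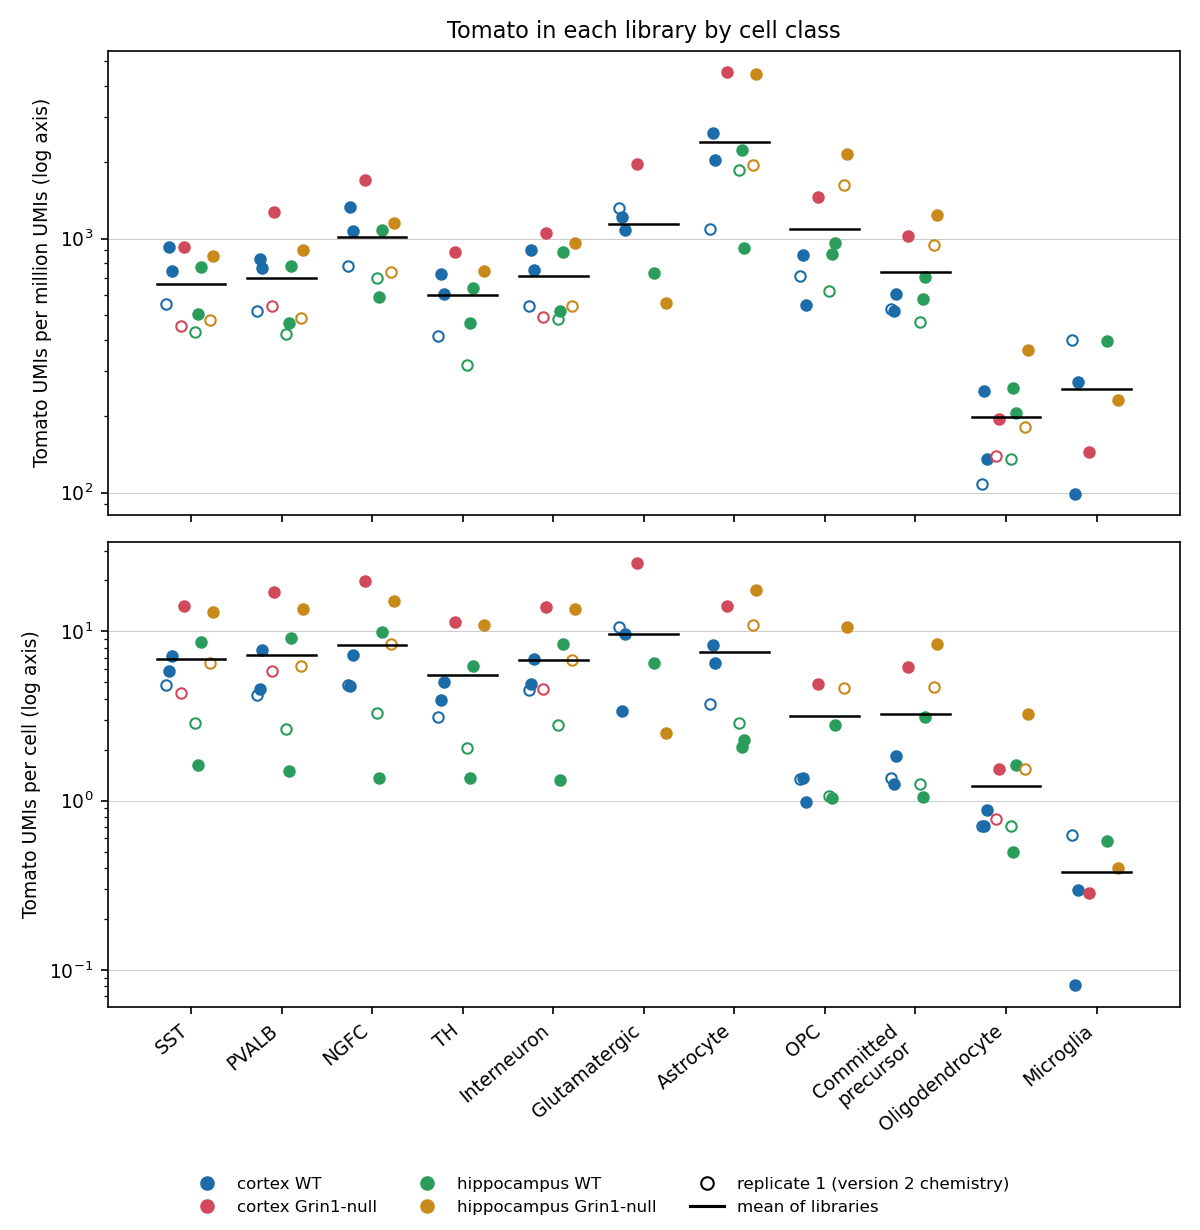
Tomato CPM (upper panel) and Tomato UMIs per cell (lower panel), both on log axes, in each library with at least 10 cells of a class, where colours give region and genotype, filled points are version 3 libraries, open points are replicate 1 libraries (version 2 chemistry) and black lines are means of libraries. In CPM astrocytes reach 4532 and lie above interneurons in 9 of 9 libraries, while oligodendrocytes and microglia lie lowest of the classes shown.

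Interneurons, the class that Nkx2-1-Cre is used to mark, held Tomato in every library. Their lowest level was 481 CPM in hippocampus WT replicate 1, the median 649 CPM and the highest 1051 CPM in cortex Grin1-null replicate 2. Pooled over libraries, the 10506 interneurons had 842 CPM, or 7.52 Tomato UMIs per cell at a median of 8010.5 UMIs, and 90.7% of them had at least 1 Tomato UMI. All 10 libraries lay above their own oligodendrocytes, by 1.87 ± 0.47 on the log2 scale (SD, 3.66-fold, exact sign-flip test, adjusted p = 0.0215). edgeR gave 1.47 ± 0.20 (SE) for the same pair, with an adjusted p of 9.2e-10 in a fit that called 76.7% of 9198 genes. All 6 libraries with at least 10 microglia had more Tomato in interneurons than in microglia, by 1.86 ± 1.04 on the log2 scale (SD, 3.63-fold, exact adjusted p = 0.0491, from the smallest p that 6 libraries allow, 0.03125). edgeR gave 1.62 ± 0.32 (SE, adjusted p = 1.5e-05, 48.0% of genes called).

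Among the interneuron subclasses NGFC carried the most Tomato, SST and PVALB cells could not be separated, and TH cells carried the least. The NGFC, which release GABA into a dense local arbor, ranged from 589 to 1698 CPM with a median of 1074 CPM over 9 libraries. SST interneurons, which target dendrites, ranged from 427 to 927 CPM with a median of 649 CPM over 10 libraries. PVALB interneurons, which target cell bodies and axon initial segments, ranged from 421 to 1275 CPM with a median of 656 CPM over 10 libraries. The TH class, named for tyrosine hydroxylase, ranged from 319 to 889 CPM with a median of 621 CPM over 8 libraries. The ranges overlapped across libraries, while inside libraries the places of NGFC and TH cells held and those of SST and PVALB cells did not.

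NGFC exceeded SST cells in 9 of 9 libraries, with a mean log2 difference of −0.54 for SST minus NGFC (exact adjusted p = 0.00938, edgeR adjusted p = 5.2e-11, 35.6% of 9767 genes called). They exceeded PVALB cells in 9 of 9 libraries (log2 −0.52 for PVALB minus NGFC, exact adjusted p = 0.00938, 37.3% called) and TH cells in 8 of 8 (0.80, or 1.74-fold, exact adjusted p = 0.00938, 33.5% called). TH cells lay below SST cells in 8 of 8 libraries (0.27 for SST minus TH, exact adjusted p = 0.00938, 25.8% called) and below PVALB cells in 8 of 8 (0.29, exact adjusted p = 0.00938, 13.5% called). SST exceeded PVALB cells in 4 of 10 libraries, a difference of −0.049 that was smaller than the spread (exact adjusted p = 0.471, edgeR adjusted p = 0.725, 38.2% called). In all, edgeR called Tomato in 5 of 6 subclass pairs. Counted per cell and not per UMI, NGFC no longer stood above SST cells (−0.11, exact adjusted p = 0.319) or PVALB cells (−0.14, exact adjusted p = 0.0820). TH cells stayed lower per cell than SST and PVALB cells in 8 of 8 libraries each and than NGFC in 7 of 8. Pooled over libraries of unlike depth, the counts were 6.6 Tomato UMIs in TH, 7.66 in SST, 8.25 in PVALB and 9.59 in NGFC.

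Replicate 1 libraries, made with version 2 chemistry, held the lower SST values. Their SST cells had 553 and 452 CPM in cortex WT and cortex Grin1-null and 427 and 479 CPM in hippocampus WT and hippocampus Grin1-null. The 6 version 3 libraries had 924, 746, 927, 506, 775 and 851 CPM. Only the 506 CPM of hippocampus WT replicate 2 fell within the version 2 range. Chemistry and replicate number are the same split here and cannot be told apart.

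Glutamatergic neurons, the excitatory projection cells of both regions, arise outside the MGE, but those sorted held Tomato above the microglial level. The class was small, 346 cells with a median of 4837.5 UMIs. In cortex it held 1321, 1221 and 1082 CPM in the WT libraries and 1959 CPM in Grin1-null replicate 2. In hippocampus it held 729 CPM in WT replicate 3 and 560.0 CPM in Grin1-null replicate 2. The cortical values were all above the hippocampal ones, a difference for which no test was run. Interneurons were higher than glutamatergic neurons in 2 of 6 libraries (log2 −0.35, exact adjusted p = 0.382, edgeR adjusted p = 0.102, 24.0% of genes called). Glutamatergic neurons exceeded microglia in 6 of 6 libraries (2.21, exact adjusted p = 0.0491, edgeR adjusted p = 2.5e-07, 42.4% called). The exact calls against microglia, for this and the other classes, ended when any of the 6 libraries was left out, with the direction kept.

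Across the oligodendrocyte lineage Tomato per UMI was high in OPCs, intermediate in committed precursors and low in myelinating oligodendrocytes. OPCs, marked by Pdgfra and Cspg4, held from 547 to 2154 CPM with a median of 871 CPM. Committed precursors, marked by Gpr17 and Bmp4, held from 471 to 1236 CPM with a median of 607 CPM. Oligodendrocytes, marked by Mog and Opalin, held from 109 to 363 CPM with a median of 188 CPM. OPCs and committed precursors overlapped, and the highest oligodendrocyte library lay below the lowest library of either.

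Inside libraries OPCs exceeded committed precursors in 8 of 9 (1.42-fold) and committed precursors exceeded oligodendrocytes in 9 of 9 (3.62-fold), both given without a test. Per cell the order of the precursors turned, with OPCs higher in 2 of 9 libraries (0.912-fold). Interneurons did not differ from committed precursors beyond the spread (log2 0.024, higher in 6 of 9 libraries, exact adjusted p = 0.879, edgeR adjusted p = 0.814, 70.7% of genes called). Interneurons exceeded OPCs in 2 of 9 libraries, and the difference of −0.48 did not pass (exact adjusted p = 0.0698, edgeR adjusted p = 0.334, 58.8% called). Committed precursors and OPCs each exceeded microglia in 6 of 6 libraries, by 1.67 and 2.13 (exact adjusted p = 0.0491 for each, 32.5% and 29.5% of genes called). Oligodendrocytes exceeded microglia in 3 of 6 libraries, with a log2 difference of −0.23 (exact adjusted p = 0.756, edgeR 0.15, adjusted p = 0.744, 37.2% called). Per cell, where the deeper oligodendrocytes count for more, they exceeded microglia in 6 of 6 libraries by 1.63 (exact adjusted p = 0.0382).

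Astrocytes, marked by Aqp4 and Gja1, held the highest Tomato level per UMI of the classes compared. In cortex they held 1089, 2599 and 2036 CPM in the WT libraries and 4532 CPM in Grin1-null replicate 2. In hippocampus they held 1860.1, 2231 and 919.8 CPM in WT and 1943 and 4427 CPM in Grin1-null. Both version 3 Grin1-null libraries lay above every WT library. Astrocytes exceeded interneurons in 9 of 9 libraries (log2 −1.58 for interneurons minus astrocytes, exact adjusted p = 0.0215, edgeR −1.63 ± 0.21 SE, adjusted p = 4.5e-10, 55.5% called) and microglia in 6 of 6 (3.25, exact adjusted p = 0.0491, 28.8% called). Counted per cell they did not differ from interneurons beyond the spread (−0.034, exact adjusted p = 0.941), with a median of 2665 UMIs in the 398 astrocytes and 8010.5 in interneurons. The class was uneven: 24.4% of its cells had 0 Tomato UMIs and 27.9% had 10 or more. In hippocampus WT replicate 3, which gave 128 of the astrocytes, 51.6% had a Tomato UMI. In all, edgeR called Tomato in 7 of the 11 class pairs.

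Microglia, taken as the measure of stray RNA, were among the classes lowest in Tomato but were not free of it. The 262 microglia held 87 Tomato UMIs, or 253 CPM (exact Poisson 95% interval 203 to 313), with a median of 1236.5 UMIs per cell and at most 6 Tomato UMIs in a cell. In cortex WT they held 399, 98.9 and 272 CPM, from 10, 3 and 31 UMIs. In cortex Grin1-null replicate 2, hippocampus WT replicate 3 and hippocampus Grin1-null replicate 2 they held 144, 395 and 231 CPM. With so few UMIs each, the microglial values of single libraries are the least precise of those compared, and the other 4 libraries had too few microglia to be used.

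Tomato in microglia was 30.1% (24.1 to 37.1) of the interneuron level, while transcripts particular to interneurons stood far lower. The same percentage was 3.34% (2.73 to 4.04) for Sst and 1.45% (1.01 to 2.01) for Npy, neuropeptides that both stood highest in SST cells. It was 2.39% for Gad1 and 3.54% for Gad2, the enzymes of GABA synthesis, and 1.85% for the vesicular GABA transporter Slc32a1. The interval for Tomato overlapped none of the other 5. Myelin transcripts in microglia stood at 2.04% (Mbp) and 0.808% (Mobp) of their oligodendrocyte level. In single libraries the Tomato percentage ran from 10.96% in cortex WT replicate 2 to 73.5% in cortex WT replicate 1. Per cell, microglia held 4.42% of the interneuron Tomato count. The source of the microglial Tomato UMIs was not tested.

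**Figure D2:**
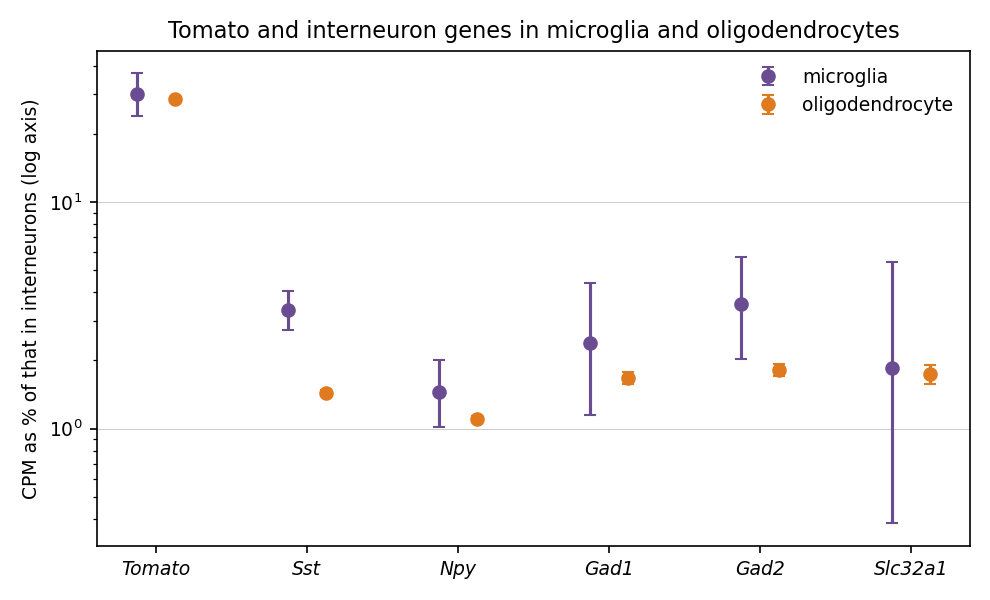
Level of Tomato and of 5 interneuron transcripts in microglia and oligodendrocytes as a percent of their level in interneurons (log axis), pooled over libraries, where bars are exact Poisson 95% intervals that cover counting error only. In microglia Tomato stands at 30.1% and the 5 interneuron transcripts between 1.45% and 3.54%.

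Oligodendrocytes showed the same gap between transcripts. Their Tomato level was 28.4% (27.9 to 28.9) of that in interneurons, against 1.44% for Sst, 1.10% for Npy, 1.67% for Gad1, 1.82% for Gad2 and 1.73% for Slc32a1. The summed CPM of the 5 GABAergic markers of the gate (Gad1, Gad2, Slc32a1, Dlx1 and Dlx6os1) had a median over libraries of 2941 in interneurons, 86.7 in oligodendrocytes, 73.2 in OPCs, 51.2 in microglia, 28.4 in astrocytes, 22.2 in committed precursors and 13.4 in glutamatergic neurons. Since the gate used these markers, low sums outside interneurons are in part its doing. Astrocytes and glutamatergic neurons, with the highest Tomato levels, were among the classes with the lowest sums. Oligodendrocytes with a UMI of Sst, Npy, Gad1, Gad2 or Slc32a1 held 279.6 CPM of Tomato and those without held 208 CPM, pooled over libraries. The former were the deeper cells, with a median of 7633 UMIs against 3963, and oligodendrocyte Tomato ran from 177 CPM in cells under 1000 UMIs to 312 CPM in those over 16000, so the part of depth and library in this gap was not tested. Microglia with and without such a UMI held 275 and 237 CPM, with intervals that overlapped. Astrocytes held 2585 and 2497 CPM, and glutamatergic neurons 1231 and 1224 CPM. OPCs held 1236 and 1017 CPM, committed precursors 961 and 767 CPM and endothelial cells 257 and 114 CPM, each higher in cells with such a UMI. Leaving out of the other classes all cells with a Gad1, Gad2 or Slc32a1 UMI, a comparison added after the data were seen, gave 1.94 for interneurons minus microglia, 2.01 for interneurons minus oligodendrocytes and −1.62 for interneurons minus astrocytes.

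Vascular and ventricular classes were too small for tests and are given as pooled levels. The 92 endothelial cells held 171 CPM of Tomato, or 20.3% (14.8 to 27.2) of the interneuron level, against 1.19% for Sst and 2.05% for Npy. In the 2 libraries with at least 10 endothelial cells and 10 microglia, the endothelial level was 1.10-fold and 1.56-fold that of microglia. In the 42 mural cells Tomato stood at 766 CPM, but 39 of its 73 UMIs came from 4 cells of hippocampus Grin1-null replicate 2. It was 363 CPM in cortex Grin1-null replicate 2 and 346 CPM in hippocampus WT replicate 3, the libraries with at least 10 mural cells. Unlike endothelial cells, mural cells pooled over libraries also held much interneuron RNA, with 2791 CPM of Sst and 808 CPM of Npy. Interneurons held 9249 and 7237 CPM of these. In cortex Grin1-null replicate 2 and hippocampus WT replicate 3, however, mural cells held 0 CPM of the summed GABAergic markers of the gate. The 252 CPM of Gad2 in pooled mural cells thus came from other libraries, and the Sst and Npy levels rest on the same pool. Choroid plexus cells, the makers of cerebrospinal fluid in the ventricles, held 800.1 CPM, and 97 of the 102 came from hippocampus WT replicate 3. They also held 814 CPM of Sst and 356 CPM of Npy. The 15 ependymal cells held 2147 CPM.

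The share of cells with a Tomato UMI followed depth as well as level. As counted, it was 90.7% in interneurons, 77.5% in committed precursors, 75.6% in astrocytes, 70.8% in OPCs, 66.5% in glutamatergic neurons, 54.4% in oligodendrocytes, 27.2% in endothelial cells and 25.95% in microglia (Wilson 95% interval 21.0 to 31.6). With each cell thinned to 1000 UMIs, which left out 3134 of the kept cells, it was 63.3% in astrocytes, 58.9% in glutamatergic neurons, 54.9% in OPCs, 52.6% in interneurons and 50.8% in committed precursors. Microglia then stood at 24.2%, with 97 of the 262 left out, oligodendrocytes at 19.7% and endothelial cells at 15%. The Wilson 95% intervals of these thinned shares, 18.3 to 31.3 in microglia, 18.8 to 20.6 in oligodendrocytes and 8.79 to 24.4 in endothelial cells, overlapped, and the classes came from different libraries. Inside libraries the thinned level of oligodendrocytes was above that of microglia in 2 of 5 (log2 −0.71, exact adjusted p = 0.306), where the smallest p that 5 libraries allow is 0.0625, so the test could not pass and the order of the classes at equal depth is not settled. Within subclasses the thinned share was 59.6% in NGFC, 54.3% in PVALB, 51.1% in SST and 49.1% in TH cells. Among interneurons with under 1000 UMIs, 33.5% had a Tomato UMI and the level was 631 CPM, against 889 CPM in those with 8000 to 16000 UMIs and 818 CPM in those with more.

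Counted as UMIs per cell, interneurons stood above most glia. They had 18.3-fold more Tomato UMIs per cell than microglia in the same libraries (log2 4.20, 6 of 6, exact adjusted p = 0.0382), and also more than oligodendrocytes (2.30, 10 of 10), OPCs (1.30, 9 of 9, exact adjusted p = 0.0143) and committed precursors (1.17, 9 of 9, exact adjusted p = 0.0143). Pooled over libraries of unlike depth, the count was 7.54 UMIs per astrocyte, 7.52 per interneuron, 7.07 per glutamatergic neuron, 3.28 per committed precursor, 2.61 per OPC, 1.36 per oligodendrocyte and 0.332 per microglial cell. No order among the 3 highest is read from these, since inside libraries astrocytes exceeded glutamatergic neurons per cell in 2 of 6 and interneurons exceeded astrocytes in 3 of 9 and glutamatergic neurons in 3 of 6. The comparison per cell was added after the data were seen.

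No Tomato difference between regions passed in WT cells. Interneurons held 544, 903 and 754 CPM in cortex and 481, 519 and 882 CPM in hippocampus, with means of 733 ± 180.4 and 627 ± 221 CPM (SD, n = 3 each). The groups overlapped, and the exact permutation p was 0.5, where 0.1 is the smallest that 3 against 3 libraries allow. The edgeR log2 difference, hippocampus minus cortex, was −0.27 ± 0.34 (SE, adjusted p = 0.9999), in a fit that called 0.269% of 13775 genes, 31 higher and 6 lower. Those 37 calls became 127 with the replicate number as a block and 233 with DESeq2, and numbered 12, 16 and 1 without cortex WT replicates 1, 2 and 3 and 9 without hippocampus WT replicate 3, but Tomato was called in none of these fits. The same fit called 0.244% of genes in SST, 0.138% in PVALB, 0.0322% in NGFC, 0.0416% in TH cells, 0.0114% in committed precursors, and 0% in oligodendrocytes, OPCs and astrocytes. Tomato was called in 0 of these 9 region tests by edgeR, with 0 at an unadjusted p under 0.05 and a lowest adjusted p of 0.935, and in 0 of 9 by DESeq2. Myelin transcripts counted in WT interneurons were higher in hippocampus by value, with log2 differences of 1.92 for Mbp (edgeR adjusted p = 0.0138) and 1.67 for Mobp (0.0807), and their part in the Tomato values was not tested.

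No Tomato difference between genotypes passed in interneurons. In cortex the Grin1-null libraries held 491 and 1051 CPM (mean 771 ± 396, SD) against the WT mean of 733 CPM, with an edgeR log2 difference of 0.075 and an exact permutation p of 1. In hippocampus they held 540.2 and 963 CPM (mean 752 ± 299) against 627 CPM, with a difference of 0.26 and an exact permutation p of 0.5. The groups overlapped in both regions. Inside replicate numbers the hippocampal values were 1.12-fold and 1.85-fold those of WT for replicates 1 and 2, and the cortical values 0.904-fold and 1.16-fold. edgeR called 0 of 13775 genes in cortex (0%, 297 at an unadjusted p under 0.05, 1 called by DESeq2) and 0 in hippocampus (0%, 465 at an unadjusted p under 0.05, 1 called by DESeq2).

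Precursors and astrocytes of Grin1-null hippocampus held more Tomato than their WT counterparts by value, without a call. OPCs held 624, 871 and 965 CPM in hippocampus WT and 1626 and 2154 CPM in hippocampus Grin1-null, with no overlap. The exact permutation p was 0.1, the smallest that 2 against 3 allow, and edgeR gave a log2 difference of 1.11 ± 0.41 (SE, p = 0.0125, adjusted p = 0.9999). Of the 4369 genes tested in OPCs, 7.32% had a larger absolute log2 difference. Committed precursors held 471, 577 and 706 CPM in WT and 946 and 1236 CPM in Grin1-null, again with no overlap (exact permutation p = 0.1, edgeR 0.81 ± 0.37 SE, p = 0.0401, adjusted p = 0.9997). Of the 8761 genes tested in them, 14.4% had a larger absolute log2 difference. How many genes showed no overlap was not counted in either class. Hippocampal astrocytes overlapped between genotypes (exact permutation p = 0.2, edgeR 1.09 ± 0.48 SE, p = 0.0306, adjusted p = 0.984), and their difference ran from 0.40 without Grin1-null replicate 2 to 1.71 without Grin1-null replicate 1. In cortex Grin1-null, OPCs of replicate 2 held 1462 CPM against 714, 859 and 547 CPM in WT, and committed precursors held 1027 CPM against 527, 519 and 607 CPM. Cortical astrocytes gave 1.26 (edgeR adjusted p = 0.997). All of these cortical comparisons rest on 1 Grin1-null library. Depth and cell quality moved with genotype: kept cells had a median of 9699 UMIs in hippocampus Grin1-null against 2630.0 in hippocampus WT, and 8703 in cortex Grin1-null against 4844 in cortex WT. Cells with 30% or more mitochondrial UMIs, which were not kept, numbered 268 in hippocampus Grin1-null and 5 in hippocampus WT, and 290 in cortex Grin1-null and 6 in cortex WT. Their part in the Tomato values was not tested.

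Inside replicate numbers the hippocampal OPC values were 2.60-fold and 2.47-fold higher in Grin1-null for replicates 1 and 2, and those of committed precursors 2.01-fold and 2.14-fold. Smaller rises stood in both pairs of oligodendrocytes (1.34-fold and 1.40-fold), SST (1.12-fold and 1.68-fold), PVALB (1.16-fold and 1.93-fold) and NGFC (1.06-fold and 1.95-fold). Astrocytes gave 1.04-fold and 1.98-fold. With the replicate number as a block the edgeR adjusted p was 0.352 for OPCs and 0.222 for committed precursors. Genes called over the whole table in hippocampus numbered 0 of 4369 in OPCs (99 at an unadjusted p under 0.05, 0 by DESeq2, 3 with the block) and 0 of 8761 in committed precursors (221 at an unadjusted p under 0.05, 0 by DESeq2, 20 with the block), while 0.0294% of 3406 genes were called in astrocytes. In TH cells of cortex, with 1 Grin1-null library that the fit assumes to vary like the other groups, 7 of 9607 genes were called (0.0729%), Grin1 among them (−4.01) and Tomato not. Over the 18 genotype tests edgeR called Tomato in 0, with 4 at an unadjusted p under 0.05, all 4 higher in Grin1-null, and a lowest adjusted p of 0.959. Over the 27 region and genotype tests DESeq2 called it in 0, with 3 at an unadjusted p under 0.05. The difference between the regions' genotype effects was called in 0 of 9 classes by edgeR (0 at an unadjusted p under 0.05) and 0 by DESeq2.

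**Figure D3:**
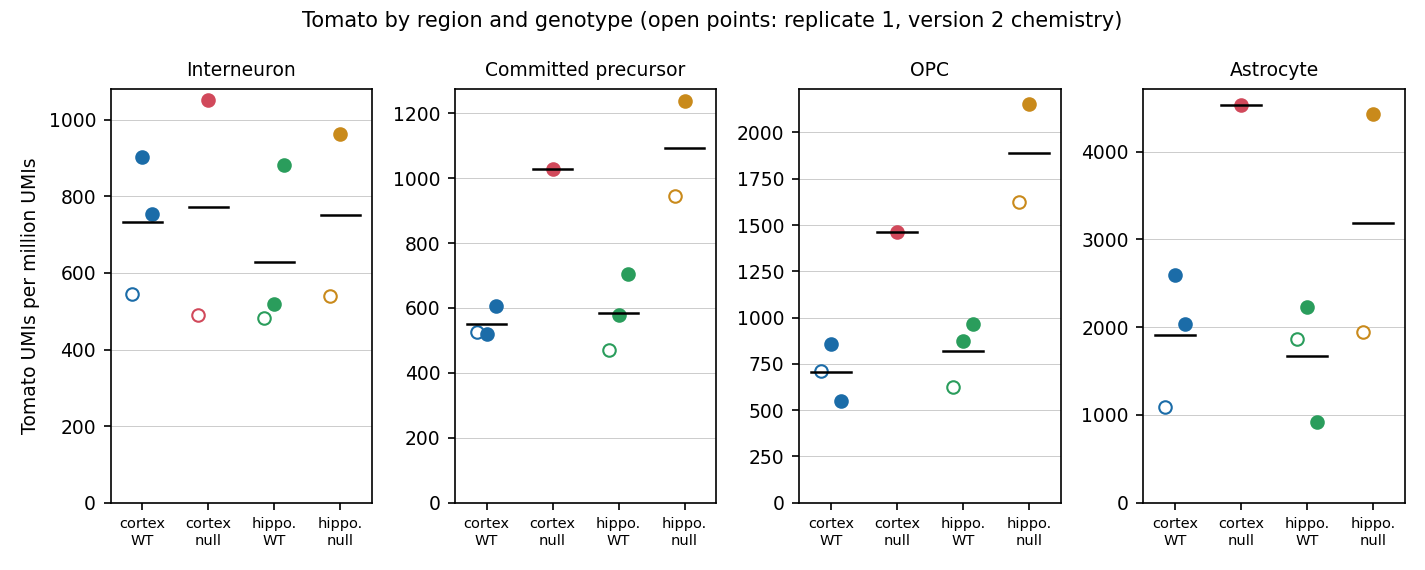
Tomato CPM in each library by region and genotype for interneurons, committed precursors, OPCs and astrocytes, on linear axes from 0 that differ between panels, where filled points are version 3 libraries, open points are replicate 1 libraries (version 2 chemistry) and black lines are means of libraries with at least 10 cells of the class. Interneuron groups overlap, while OPCs and committed precursors of hippocampus Grin1-null lie above those of hippocampus WT by value, without a call.

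EGFP was close to absent. It gave 5 UMIs in 5 cells of all 26987, or 0.0294 CPM (exact Poisson 95% interval 0.00955 to 0.0687). A PVALB cell of cortex WT replicate 1 held 1 of them beside 2 Tomato UMIs, and an oligodendrocyte of cortex WT replicate 3 held 1 beside 0 Tomato UMIs. The other 3 came from hippocampus Grin1-null replicate 2, in a committed precursor with 10 Tomato UMIs, an NGFC with 7 and an oligodendrocyte with 5. The remaining 7 libraries had 0, and the limit set by 3 counts depended on depth, up to 2.02 CPM in cortex Grin1-null replicate 1. By class EGFP stood at 0.0213 CPM in interneurons, 0.0417 CPM in oligodendrocytes and 0.151 CPM in committed precursors, from 2, 2 and 1 UMIs. Other classes had 0 UMIs, which allows up to 1.51 CPM in glutamatergic neurons, 1.81 CPM in OPCs, 2.53 CPM in astrocytes, 8.74 CPM in microglia and 11.4 CPM in endothelial cells. The SST subclass also had 0, with a limit of 0.0648 CPM. No group difference in EGFP was detectable at this depth.

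Tomato and the loss of Grin1 both follow Cre, so Grin1 was compared between cells with and without a Tomato UMI. None of the 11 tests passed, but with at most 6 libraries each none could have passed after adjustment over the 11, so the values are given as a description. WT interneurons with a Tomato UMI differed in Grin1 CPM from those without by −0.17 on the log2 scale (higher in 4 of 6 libraries, exact sign-flip p = 0.5625). WT oligodendrocytes gave the lowest adjusted p, 0.344, with Grin1 higher in cells with a Tomato UMI in 6 of 6 libraries (1.39, exact p = 0.03125, the smallest possible). In Grin1-null animals, where Cre also removes Grin1, cells without a Tomato UMI were too few for a precise value. Pooled, Grin1-null interneurons held 984 Grin1 UMIs (22.9 CPM) in 3063 cells with a Tomato UMI and 12 (43.2 CPM) in 126 cells without. Inside libraries the mean log2 difference was 1.34 ± 2.84 (SD, higher in 2 of 3 libraries, exact p = 0.75, 0.25 being the smallest possible), set by hippocampus Grin1-null replicate 2, whose 27 cells without a Tomato UMI held 0 Grin1 UMIs. Grin1-null oligodendrocytes held 20 Grin1 UMIs with and 2 without a Tomato UMI (exact p = 0.25, 0.125 being the smallest possible). The values in SST, PVALB and committed precursor cells of Grin1-null animals came from 1 library each, with 0 Grin1 UMIs in cells without Tomato, and give no fold. Cells with a Tomato UMI were the deeper ones, and the part of depth in these values was not tested.

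Lhx6 and Nkx2-1, transcription factors of the MGE lineage, did not share the class order of Tomato, which stood highest in astrocytes. Lhx6, which acts downstream of Nkx2-1 in migrating interneurons, stood at 121 CPM in interneurons and 199 CPM in NGFC. It stood at 2.91 CPM in microglia and 0.842 CPM in astrocytes, from 1 UMI each. Nkx2-1 itself, at chromosome 12, 56531958 to 56536908 on the minus strand of GRCm38, stood at 25.3 CPM in interneurons, with 85.8 CPM in NGFC, 29.1 CPM in PVALB and 3.50 CPM in SST cells. It stood at 42.8 CPM in OPCs, 15.2 CPM in astrocytes, 12.0 CPM in glutamatergic neurons, 3.01 CPM in committed precursors, 1.44 CPM in oligodendrocytes and 0 in microglia, where up to 8.74 CPM is allowed. NGFC thus held the most Nkx2-1 and the most Tomato per UMI of the 4 subclasses, though per cell their Tomato did not stand above that of SST or PVALB cells. The rest of the order was not shared. TH cells, lowest in Tomato, held 15.9 CPM of Nkx2-1, more than SST cells. Sox6, a factor of both interneurons and early oligodendroglia, stood at 54.0 CPM in interneurons, 247 CPM in OPCs and 213 CPM in committed precursors. None of the 12 MGE lineage factors read passed in interneurons by region or genotype. The lowest edgeR adjusted p were 0.0176 for Sox6, by region (−1.53, lower in hippocampus), and 0.0558 for Nkx2-1 (1.64, higher in hippocampus). These fits called 0.269% of 13775 genes by region and 0% by genotype in either region. The median log2 difference of the list was 0.14 by region, against 0.011 over all genes, −0.23 against −0.015 by genotype in cortex, and −0.17 against −0.051 by genotype in hippocampus.

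Genes around the Ai14 insertion and genes used in every cell were read beside the reporter. Gt(ROSA)26Sor, the transcript of the Rosa26 locus at chromosome 6, 113067428 to 113077333 on the minus strand, stood at 182 CPM in astrocytes, 179 CPM in interneurons, 262 CPM in NGFC, 112 CPM in oligodendrocytes, 102 CPM in glutamatergic neurons, 66.9 CPM in OPCs, 49.5 CPM in committed precursors and 37.9 CPM in microglia. OPCs and committed precursors, high in Tomato, were thus low in the host transcript, below oligodendrocytes. Its neighbours Setd5 and Thumpd3 stood at 73.1 and 14.5 CPM in interneurons. None of these 3 genes passed in interneurons by region or genotype (lowest edgeR adjusted p 0.967), with a median log2 difference of −0.069 by region and of −0.0059 and 0.40 by genotype in cortex and hippocampus. None of 8 broadly used genes passed either, the lowest adjusted p being 0.679 for Gapdh by region, with medians of −0.22, 0.21 and 0.41 for the same comparisons. Over all 13775 genes, 0.269% were called by region and 0% by genotype, and the medians were 0.011, −0.015 and −0.051.

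The genes whose level followed Tomato most closely were sought over 82 sums of a class in a library, from 12 classes and 9791 genes. The sums share libraries and depth, so the correlations are a description. Among the highest values of Pearson's r were those of Dmd (0.757), Dclk1 (0.754), Ncan (0.741), Nrcam (0.739), Atp1b2 (0.737), Gm3764 (0.735) and Pou3f2 (0.732), against a median of 0.128 over all genes. Ncan encodes neurocan, a proteoglycan of the extracellular matrix. All of these were higher in astrocytes than in oligodendrocytes or microglia, as Tomato was: Dclk1 stood at 846 CPM in astrocytes and 15.8 CPM in microglia, and Atp1b2, a sodium pump subunit, at 1387 and 1.76 CPM. In microglia none of those named exceeded the 15.8 CPM of Dclk1. For Nkx2-1 r was 0.406, for Sox6 0.400, for Gt(ROSA)26Sor 0.195, for Gapdh 0.429 and for Ppia 0.455, while it was −0.403 for Actb.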

How the data were processed

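Single-cell UMI counts of TdTomato-sorted cells were taken as deposited by the authors, as 4 matrices made with Cell Ranger on mm10, for which gene ends had been extended by 4 kb. The Cell Ranger version is 2.1.1 in the submitters' processing notes and 3.0.2 in the matrix headers. Each matrix pools libraries by barcode suffix, and suffixes were matched to the replicates through the cell numbers in the methods. Members and lists were chosen with earlier results of these data known.

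Cells were kept at 200 to 6000 genes where mitochondrial UMIs (37 genes) made up under 30%. Classes were assigned by marker score (at least 2 markers, score of 0.2, lead of 0.1), without either reporter, and no doublet caller was used: cells with markers of more than 1 class were set aside. CPM is the pooled UMIs of a class in a library (at least 10 cells) per 1e6 UMIs. Class pairs were compared inside libraries by two-sided exact sign-flip tests on log2(CPM + 1), with Benjamini-Hochberg adjustment over 11 class pairs and 6 subclass pairs and a threshold of 0.05. The log2 scale with 1 CPM added slightly understates differences of low values. Region and genotype were tested with edgeR 4.0.16 (quasi-likelihood, TMM, 4 groups in a model per class, adjusted over all genes, with calls where adjusted p was below 0.01 and the change at least 0.1 in natural log), and by two-sided exact permutation of CPM over libraries. A class with 1 library in a group is assumed to vary like the other groups. In the class fits the library was a block.

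Same-numbered WT libraries of cortex and hippocampus, by the numbering of the methods, deviated together (r = 0.77, 0.69 and 0.43 over 6138 genes in SST cells). What they share beyond the number, such as mice or chemistry, was not tested. The genes most like Tomato were the 8 with the highest Pearson correlation of log2(CPM + 1) over sums of at least 20 cells, among genes at 10 CPM or more, and some genes of these lists are not reported here. Alternatives were DESeq2 1.42.0, a replicate block, other filters, gates and scalings, thinning to 1000 UMIs and leaving out each library, and, added after the data were seen, UMIs per cell and cells without interneuron UMIs. Calculations were tested on simulated data and run in Python 3.11.15 (numpy 2.4.6, scipy 1.17.1, pandas 2.3.3, matplotlib 3.10.9) and R 4.3.3. Library totals ran from 1488601 to 47338167 UMIs, so a count of 0 (limit of 3 counts) allows 0.0634 to 2.02 CPM. Intervals cover counting error only.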

Additional observations from a re-analysis of the deposited data

Results flagged for a closer look

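Tomato was also read in cells that entered no comparison, and in each group their pooled level lay above the 253 CPM of microglia. The 786 cells outside the limits on genes and mitochondrial UMIs held 680.4 CPM, and by group 702 CPM in cortex WT, 601 CPM in cortex Grin1-null, 475.8 CPM in hippocampus WT and 709 CPM in hippocampus Grin1-null. A Tomato UMI was present in 34.5% of them. Those with 30% or more mitochondrial UMIs held 218 CPM in cortex Grin1-null (290 cells) and 280.0 CPM in hippocampus Grin1-null (268 cells). Those under 200 genes held 127 and 164 CPM in the same groups. Those with over 6000 genes, which gave 580, 613, 2550 and 96 of the 635, 616, 2623 and 98 Tomato UMIs of cortex Grin1-null, cortex WT, hippocampus Grin1-null and hippocampus WT, held between 498 and 742 CPM by group. Among the high-mitochondrial and low-gene cells the level was thus near or below that of microglia in both Grin1-null groups. Cells with markers of more than 1 class held 650.1 CPM and unassigned cells 696 CPM, both between the levels of oligodendrocytes and interneurons. No library stood apart in any of the 17 class and subclass comparisons checked for a single distant value.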

How the results depend on the processing

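Of 220 alternative values of the class comparisons, 158 kept direction and side of the threshold, as did 112 of 114 for subclasses, all 135 for region and 225 of 240 for genotype. The microglial comparisons rest on 6 libraries, where leaving out any ends the call because 5 libraries allow no p under 0.0625. Without each library in turn the log2 difference from microglia ran from 1.60 to 2.14 in interneurons, 1.44 to 1.92 in committed precursors, 1.89 to 2.39 in OPCs, 2.90 to 3.65 in astrocytes and 1.90 to 2.47 in glutamatergic neurons. In the same order it was 1.84, 1.69, 2.11, 3.21 and 2.35 with a stricter gate, 2.14, 1.92, 2.39, 3.61 and 2.56 with sums of at least 20 cells, 1.59, 1.40, 1.83, 2.81 and 1.72 with cells thinned, and 2.65, 2.61, 3.14, 4.72 and 3.43 with a stricter cell filter, which left 1 library and no test. None of these passed. Oligodendrocytes minus microglia turned to 0.20 with the stricter filter, 0.10 with 20 cells and 1.63 per cell (passing), and ran from −0.54 to 0.10 without single libraries.

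Per cell, interneurons passed against committed precursors (1.17) and turned against OPCs (1.30) and glutamatergic neurons (0.12), and the astrocyte difference was lost (−0.034); it was −1.57 with 20 cells, not passing. Interneurons minus committed precursors ran from −0.072 to 0.13 without single libraries. SST minus NGFC and PVALB minus NGFC were lost per cell (−0.11, −0.14). The cause was not tested.

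Genotype differences that changed sign were never called. Oligodendrocytes of cortex gave −0.019 with the replicate block and −0.027 with the stricter filter. Without single libraries the ranges were −0.46 to 0.45 in cortical and −0.13 to 0.85 in hippocampal oligodendrocytes, −0.56 to 0.50 and −0.16 to 0.59 in interneurons, −0.71 to 0.35 and −0.18 to 0.57 in SST, −0.33 to 0.84 and −0.087 to 0.65 in PVALB, and −0.032 to 0.52 in hippocampal NGFC. The lowest adjusted p for Tomato under any alternative was 0.222 by genotype and 0.457 by region. The replicate block changed no Tomato call.

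Genes called by region in interneurons numbered 37, against 127 with the replicate block, 233 with DESeq2, 376 without a filter on low counts, 12, 16 and 1 without cortex WT replicates 1, 2 and 3, and 9 without hippocampus WT replicate 3. By genotype 0 became 26 in cortex and 32 in hippocampus without that filter, and 1 in each with DESeq2. In the other classes the block raised calls most in cortical TH cells by genotype, from 7 to 82.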
